A study of Mus musculus with 6 samples.

Results

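Hedgehog signalling was examined in mouse lung through 9 genes: the ligands Shh, Ihh and Dhh, the ligand-releasing protein gene Scube2, the receptors and binding proteins Ptch1, Smo and Hhip, and the transcription factors Gli1 and Gli2. They were taken by symbol from 23238 gene symbols with read counts, and all 9 were found. Scube2 was chosen by its measured log2 fold and call in the comparison reported here, so its difference between groups is given as a description and supports nothing. The other 8 were taken for their place in the pathway, with earlier results of these data known.

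Gene expression had been measured by RNA sequencing in whole lung tissue of wild-type (WT) mice given PM or its vehicle, phosphate-buffered saline (Veh (PBS)), both by the route labelled i.t. The series title calls the exposure chronic. PM and i.t. are not spelled out in the labels, which give no dose, duration, age or sex and do not say whether samples came from separate animals, so all spreads and p-values are those between these samples. Each group has 3 samples, but the tables of PBS replicates 1 and 2 are identical in all 23282 entries, and the header of the second names the first. They were counted as 1 library, which leaves PBS replicates 1 and 3 against PM replicates 1, 2 and 3.

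Hedgehog ligands are secreted lipid-modified proteins, made in the lung mainly by epithelium and received mainly by the mesenchyme beneath it. A ligand binds Patched (Ptch1), which releases Smoothened (Smo) from inhibition, and Smoothened acts through the primary cilium to turn Gli transcription factors into activators. Gli1, Ptch1 and Hhip are themselves textbook target genes of the pathway, and SCUBE2 is a secreted protein that helps free the lipid-bearing ligand from the cell that makes it.

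Total counts were 7410200 to 8827202 per library, and levels are given as CPM (counts brought to a common library total, after scaling by TMM, the trimmed mean of M values). At these depths 3 counts, the most that a count of 0 allows, correspond to 0.348 to 0.43 CPM, for counting error only. Defining lung markers were present throughout: Sftpc of alveolar type 2 cells averaged 10419 CPM in PBS and 10996 CPM in PM, Scgb1a1 of club cells 20207 and 22415 CPM, and Ager of alveolar type 1 cells 3243 and 2448 CPM. The 2 groups were compared with the quasi-likelihood test of edgeR (two-sided) over 14057 genes that passed a filter on low counts, and a gene is said to be called where its p, adjusted by Benjamini-Hochberg, is below 0.05.

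Scube2 had the highest level of the 9 for its length, and it was lower in PM lung. Scube2 stood at 105 and 103 CPM in PBS replicates 1 and 3, and PM replicates 1, 2 and 3 had 66.0, 52.7 and 45.5 CPM. The groups did not overlap, the PBS values were nearly equal, and PM replicate 1 lay between them and the other two PM libraries. The group means were 104 ± 1.77 CPM (SD, n = 2) and 54.8 ± 10.4 CPM (SD, n = 3), resting on 1738 and 1294 counts in all. The log2 fold was -0.92 ± 0.15 SE, with a 95% interval of -1.26 to -0.59, so that the fitted level fell by 47.2%. In whole tissue, fewer cells of a type and less RNA per cell cannot be told apart.

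In the comparison over all genes 32 were called, 12 lower and 20 higher. Scube2 was among the 12, 28th by p-value of the 14057, and this is the result for which it was chosen. Of the members, 1 was called lower, where 0.0854% of all tested genes were, and 0 were called higher, where 0.142% were. Since the choice used this contrast, nothing is read from these shares. The Scube2 call was lost with limma-voom and with non-robust estimation (adjusted p = 0.0864 and 0.0631). It was also lost without PBS replicate 1 and without PBS replicate 3, fits that keep only 1 PBS library. Over the alternatives that keep both PBS libraries the adjusted p ran from 0.000198 to 0.0864. The log2 fold stayed between -1.08 and -0.80 over 15 alternatives.

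**Figure D1:**
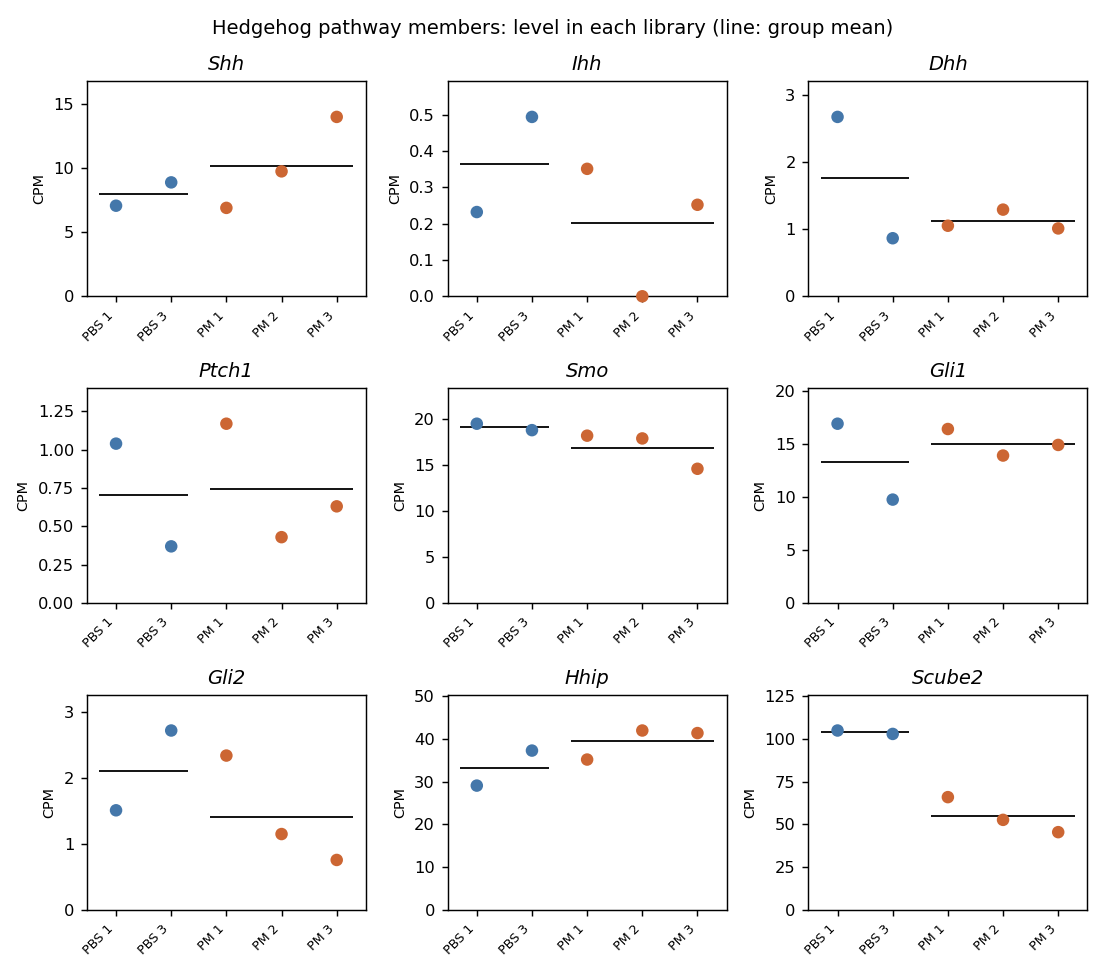
Level of each of the 9 genes in CPM (vertical axes, each from 0 with its own scale) in the 5 distinct libraries (horizontal axes; blue, PBS; orange, PM). Points are libraries and lines are group means. Scube2 lies at 103 to 105 CPM in PBS and 45.5 to 66.0 CPM in PM, while for Shh, Gli1, Gli2 and Hhip the groups overlap.

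Scube2 lies on the minus strand of chromosome 7 at 109798676 to 109865679 in GRCm38 (mm10), with 25 exon blocks and 4153 exon bases in GENCODE M21, and none of these bases is shared with another annotated gene. Hhip, the second most abundant member per length, lies on the minus strand of chromosome 8 at 79965851 to 80058006. The 250 bases before the annotated start of each are shown, because these 2 genes are the best measured of the set and their log2 folds point in opposite directions (Hhip without passing the test). They come from RefSeq's GRCm38.p6 promoter table and are written 5′ to 3′ on the gene's strand, chr7:109865680-109865929 and chr8:80058009-80058258. Capitals mark GC boxes, the letters GGGCGG on either strand, where neighbouring matches may overlap.
Scube2: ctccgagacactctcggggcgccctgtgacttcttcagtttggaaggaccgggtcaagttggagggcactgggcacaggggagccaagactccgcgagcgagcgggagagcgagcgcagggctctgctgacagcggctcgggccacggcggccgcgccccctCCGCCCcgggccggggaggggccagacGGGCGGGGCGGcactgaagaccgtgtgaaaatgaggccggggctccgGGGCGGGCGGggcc
Hhip: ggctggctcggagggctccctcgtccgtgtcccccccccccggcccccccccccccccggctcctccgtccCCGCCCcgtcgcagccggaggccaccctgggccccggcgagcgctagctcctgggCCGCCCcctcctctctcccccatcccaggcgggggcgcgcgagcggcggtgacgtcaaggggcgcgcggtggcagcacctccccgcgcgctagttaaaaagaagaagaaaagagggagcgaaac

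The Scube2 stretch holds 5 GC boxes in 73.6% G and C, and the Hhip stretch 2 in 76%. Over windows of 300 bases, 6 of the 7 member promoters in the table held a GC box, against 35.7% of all 32851 windows. The median G and C was 72.7% in the member windows and 52.7% over all windows, and a GC box holds only G and C. Of the windows of other pathway genes 62.2% held one, at a median of 62% G and C. Nothing about the members is read from these shares. The 7 windows belong to Ihh, Gli2, Smo, Scube2, Hhip, Ptch1 and Dhh. That of Ptch1, chr13:63565686-63565985, lies inside the gene, which runs to 63573598 on the minus strand in GENCODE M21. It therefore does not cover the outermost annotated start. The consensus that GLI factors bind, GACCACCCA on either strand, was in 0 of the 7 and in 0.253% of all windows. Allowing 1 mismatch it was in 0 of the 7, and in 6.74% of all windows. With only 7 windows, nothing is read from either count of 0. These are matches of letters in short windows and say nothing about binding of the factor elsewhere.

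Of the ligands, Shh (Sonic hedgehog), the ligand of lung airway and alveolar epithelium, was the only one with enough counts to be tested. Shh stood at 7.07 and 8.89 CPM in PBS and at 6.90, 9.75 and 14.0 CPM in PM. The groups overlapped, with PM replicate 1 the lowest of all libraries and PM replicate 3 the highest. Its log2 fold was 0.35 ± 0.33 SE, with a 95% interval of -0.36 to 1.07, and it did not pass edgeR's test with Benjamini-Hochberg adjustment (adjusted p = 0.690). Without PM replicate 3 the log2 fold was 0.06. Exons of the antisense gene 9530036O11Rik cover 446 of the 2847 exon bases of Shh, and since it is not known whether counting used strand, their reads cannot be told apart there. That gene was counted at 5.80 to 8.65 CPM, with overlapping groups.

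Ihh (Indian hedgehog), best known in growing cartilage and gut, was close to absent. It had 2 and 4 counts in PBS and 3, 0 and 2 counts in PM, a highest level of 0.494 CPM. Of 7 cartilage markers, Col2a1, Col9a1 and Matn1 had no count in any library and Acan, Comp and Lect1 reached at most 0.811 CPM. The other, Sox9, which is also made by lung epithelium, stood at 1.85 and 1.48 CPM in PBS and at 3.04, 7.31 and 4.79 CPM in PM, with a log2 fold of 1.58 ± 0.51 SE (edgeR, Benjamini-Hochberg adjusted p = 0.194). Dhh (Desert hedgehog), known from Schwann cells, endothelium and gonads, had 23 and 7 counts in PBS and 9, 9 and 8 in PM, or 0.864 to 2.67 CPM. PBS replicate 1 had the highest Dhh level and PBS replicate 3 the lowest, so the PM libraries lay inside the PBS range. Dhh shares 546 of its 4399 exon bases with Rhebl1 on the same strand, a gene at 10.1 to 14.2 CPM, so part of these few reads is uncertain. Neither ligand passed the filter. In the fit with no filter on low counts the log2 folds were -0.75 ± 1.5 SE for Ihh and -0.67 ± 0.74 SE for Dhh, with 95% intervals of -3.84 to 2.33 and -2.19 to 0.86. A difference in either was not detectable at this depth unless it was large.

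Among receptors and binding proteins, Hhip and Smo were well measured and Ptch1 was not. Hhip (Hedgehog-interacting protein), a membrane protein that binds ligand and so limits the signal, stood at 29.1 and 37.3 CPM in PBS and at 35.2, 42 and 41.4 CPM in PM. The groups overlapped through PM replicate 1, which lay below PBS replicate 3. The log2 fold of Hhip was 0.25 ± 0.17 SE, with a 95% interval of -0.12 to 0.62 (edgeR, Benjamini-Hochberg adjusted p = 0.552).

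Smo, the signal-passing receptor, stood at 19.5 and 18.8 CPM in PBS and at 18.2, 17.9 and 14.6 CPM in PM. All PM libraries lay below all PBS libraries, which held for 16.1% of tested genes, but by little except in PM replicate 3. The log2 fold of Smo was -0.18 ± 0.19 SE, with a 95% interval of -0.60 to 0.24 (edgeR, Benjamini-Hochberg adjusted p = 0.750).

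Ptch1, the ligand receptor and itself a pathway target, had 9 and 3 counts in PBS and 10, 3 and 5 in PM. Its level was 0.370 to 1.17 CPM, lowest in PBS replicate 3 and highest in PM replicate 1. Ptch1 did not pass the filter, and its log2 fold with no filter was 0.08 ± 1.03 SE (95% interval -2.04 to 2.19). A difference in Ptch1 was not detectable at this depth. Its exon model is the longest of the 9, at 14185 bases, and no other annotated gene shares these bases.

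Of the transcription factors, Gli1, an activator whose own transcription is a common readout of the pathway, stood at 16.9 and 9.75 CPM in PBS and at 16.4, 13.9 and 14.9 CPM in PM. The PM libraries all lay between the 2 PBS libraries. The log2 fold of Gli1 was 0.17 ± 0.25 SE, with a 95% interval of -0.38 to 0.73 (edgeR, Benjamini-Hochberg adjusted p = 0.825). Its sign rested on PBS replicate 3: without that library the log2 fold was -0.17. Gli1 shares 62 of its 4995 exon bases with Arhgap9 on the opposite strand, a gene at 16.1 to 22.1 CPM.

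Gli2, the main activator downstream of Smoothened, had 13 and 22 counts in PBS and 20, 8 and 6 in PM. That is 1.51 and 2.72 CPM against 2.34, 1.15 and 0.757 CPM, with PM replicate 1 inside the PBS range and the other PM libraries below it. The log2 fold of Gli2 was -0.56 ± 0.66 SE, with a 95% interval of -2.0 to 0.89 (edgeR, Benjamini-Hochberg adjusted p = 0.776). The interval is wide, with 35 counts of Gli2 in all in PBS and 34 in PM.

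Of the 9 members, 6 passed the filter. Of the 5 besides Scube2, 0 were called by edgeR, 0 had an unadjusted p below 0.05, and DESeq2 and limma-voom called 0. Their median log2 fold was 0.17, against 0.01 over all tested genes. All PM libraries lay below all PBS libraries for Smo alone among these 5, and above for none, where 15.5% of tested genes lay above. The test says only that a change was not shown: the intervals of Hhip, Smo and Gli1 do not reach a fold of the size seen for Scube2 in either direction, whereas that of Shh reaches a rise and that of Gli2 a fall of that size. The difference in fold between Scube2 and any other member was not tested.

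Compared per kilobase of exon, which allows levels of different genes to be set side by side, the members fell into 3 tiers. Scube2 was at 17.9 ± 6.72 CPM per kb (mean ± SD over the 5 libraries), and its lowest library, at 11.0, lay above the highest library of any other member. Hhip followed at 4.07 ± 0.578 CPM per kb, Shh at 3.27 ± 1.01, Smo at 3.17 ± 0.333 and Gli1 at 2.88 ± 0.568, and each of these overlapped the next in range. The lowest Gli1 library, at 1.95 CPM per kb, lay above the highest Dhh library at 0.606. Dhh at 0.313, Gli2 at 0.246, Ihh at 0.0872 and Ptch1 at 0.0514 CPM per kb again overlapped each neighbour. Exon lengths are unions over all annotated transcripts, so a gene with long, little-used exons appears lower than it is. The Ptch1 level is very low beside that of Gli1, the cause was not tested, and its place in this order is uncertain.

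**Figure D2:**
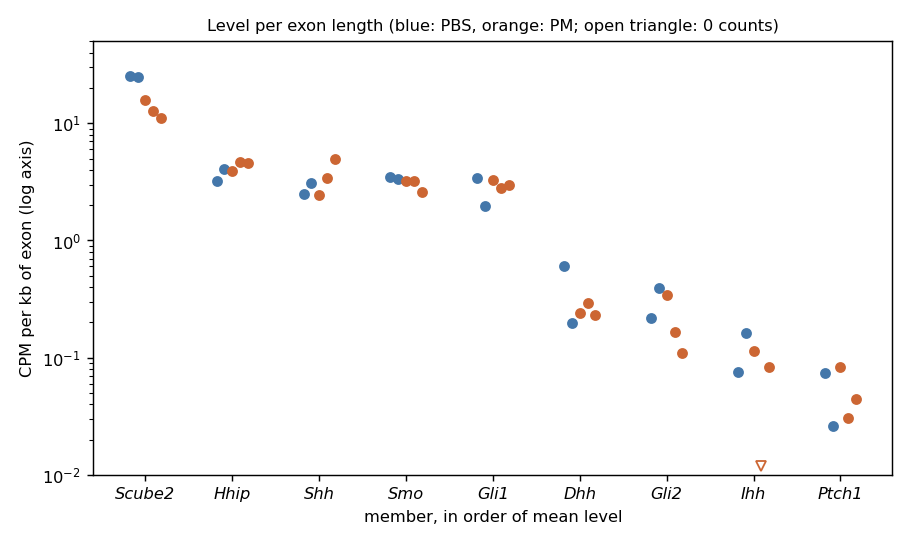
Level per exon length of the 9 genes (vertical axis, CPM per kb of exon, log axis) in order of mean level (horizontal axis), with 1 point per library (blue, PBS; orange, PM; open triangle, 0 counts). Scube2 stands apart at 11.0 to 25.3, Hhip to Gli1 lie at 1.95 to 4.92, and Dhh to Ptch1 reach at most 0.606.

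Other genes of the pathway were taken from 5 lists ordered by role, 58 genes of which 57 were in the tables and 52 were tested. Of the 52, 0 were called in edgeR's test, where 0.228% of all tested genes were called either way. At an unadjusted p below 0.05 there were 2 higher and 4 lower, where 13.3% of all tested genes lay below that p. DESeq2 called 1 higher, Lrp2, where it called 257 of the 14057 tested genes higher. The count for limma-voom was 0, where it called 17 of all tested genes. The median log2 fold was 0.01, equal to that of all tested genes. All PM libraries lay below all PBS libraries for 13 of the 52 and above for 6, beside 16.1% and 15.5% of all tested genes.

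Among 5 genes of ligand processing and release, 3 were tested and all had log2 folds below 0, with a median of -0.66. Scube1, the relative of Scube2, stood at 14.5 and 16.5 CPM in PBS and at 9.70, 9.17 and 8.70 CPM in PM. All PM libraries were below all PBS libraries, at a log2 fold of -0.75 ± 0.22 SE, but Scube1 did not pass edgeR's test with Benjamini-Hochberg adjustment (adjusted p = 0.158). Of the alternatives, it passed only when the duplicated PBS table was counted as a sample of its own (adjusted p = 0.0358, within a range of 0.0358 to 0.757 over the alternatives). Disp2, of the Dispatched family whose member Disp1 exports the ligand, had a log2 fold of -0.66 ± 0.40 SE with overlapping groups. Scube3, the third SCUBE gene, had no count in PBS and 0.117 CPM in PM replicate 1 only, at which no fold is given.

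Of the receptors' partners 6 were tested, with a median log2 fold of -0.15. Lrp2 (megalin), an endocytic receptor that binds hedgehog among many ligands, stood at 65.0 and 47.0 CPM in PBS and at 94.2, 94.0 and 73.9 CPM in PM. Every PM library was above both PBS libraries, and its log2 fold was 0.64 ± 0.17 SE (edgeR, Benjamini-Hochberg adjusted p = 0.128, and 0.0196 to 0.742 over the alternatives). It passed with no filter on low counts, with DESeq2, with the replicate number as a block and without PM replicate 3. In the block fit PM replicate 2 does not enter the fold, because no PBS library used has its number. The log2 fold of Lrp2 there was 0.59, as in the fit without PM replicate 2, where Lrp2 did not pass. Gpc3, a glypican that competes with Patched for ligand, had a log2 fold of -0.23 ± 0.12 SE. The co-receptors Boc, Cdon and Gas1 had log2 folds of -0.37, -0.07 and -0.33, with 95% intervals that all included 0.

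In the intracellular list 20 of 21 genes were tested and the median log2 fold was -0.03. It holds the repressor Gli3 (0.40 ± 0.31 SE), Sufu, which holds Gli proteins inactive (-0.21 ± 0.25 SE), and the kinases and adaptors that act on them. The smallest unadjusted p-values belonged to Arrb1, a beta-arrestin, and Prkaca, a catalytic subunit of protein kinase A, at log2 folds of -0.23 ± 0.13 SE and -0.22 ± 0.13 SE. Both were lower in all PM libraries than in all PBS libraries and neither passed (edgeR, Benjamini-Hochberg adjusted p = 0.472 and 0.512). Of the 20, all PM libraries were below all PBS libraries for 5 and above for 1, beside 16.1% and 15.5% of all tested genes. Gpr161, a ciliary receptor that restrains the pathway, had no count in any library.

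Genes of transport in the primary cilium, the organelle in which Smoothened acts, had log2 folds above 0 in 9 of 10, with a median of 0.24. Every PM library was above both PBS libraries for 4 of the 10 and below them for 0, beside 15.5% and 16.1% of all tested genes. Ift88 (0.49 ± 0.21 SE) and Ift122 (0.46 ± 0.23 SE), both parts of the intraflagellar transport machinery, had the smallest p-values (edgeR, Benjamini-Hochberg adjusted p = 0.331 and 0.418). Most of these genes also serve motile cilia. The summed level of 5 markers of ciliated airway cells was 68.4 and 76.1 CPM in PBS and 91.9, 144 and 126 CPM in PM, with log2 folds of 1.17 for Dnah5, 0.76 for Rsph1 and Foxj1, 0.47 for Ccdc39 and -0.01 for Tekt1. The groups of Foxj1 and Tekt1 overlapped, and none of the 5 passed edgeR's test with Benjamini-Hochberg adjustment (adjusted p = 0.0605 to 0.995). The part of these cells in the cilium genes was not tested.

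Genes reported as hedgehog targets in mesenchyme or other tissues gave a median log2 fold of -0.13 over 13 tested. Snai1, a transcription factor of mesenchymal cells, stood at 34.1 and 35.2 CPM in PBS and at 25.7, 18.2 and 21.3 CPM in PM (log2 fold -0.67 ± 0.18 SE). Foxf1, the forkhead factor that marks lung mesenchyme and capillary endothelium, stood at 130 and 145 CPM in PBS and at 107, 97.3 and 116 CPM in PM (-0.36 ± 0.12 SE). Neither passed edgeR's test with Benjamini-Hochberg adjustment (adjusted p = 0.139 and 0.212), though in both the groups did not overlap. Of the 13, all PM libraries were below all PBS libraries for 5 and above for 0, beside 16.1% and 15.5% of all tested genes. Ccnd1 and Igfbp6 were called only without PM replicate 3, at log2 folds of 0.60 and -0.78. Many of these genes answer to other pathways as well.

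**Figure D3:**
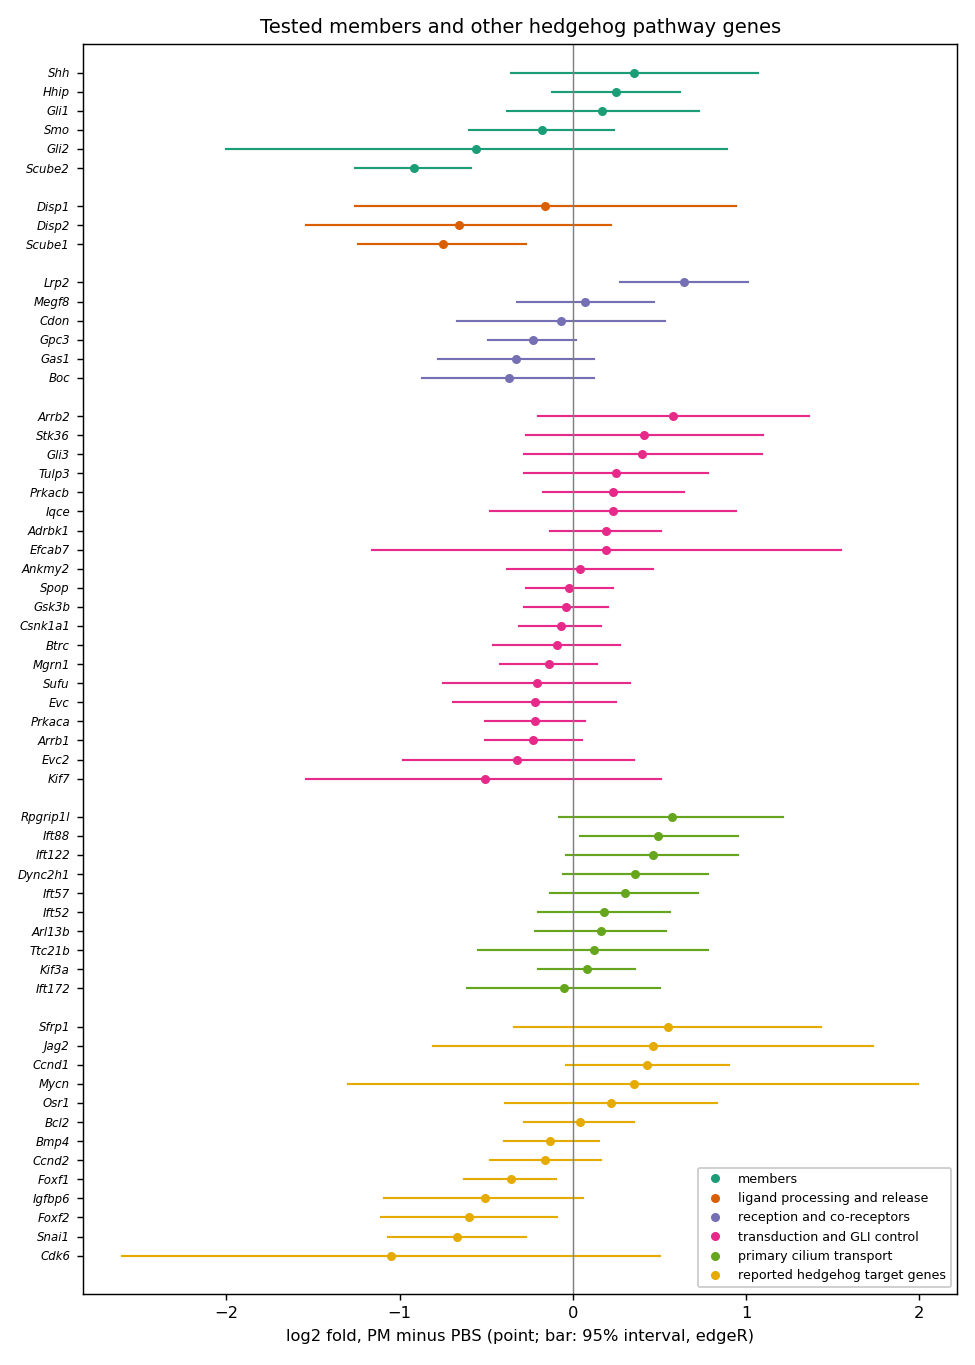
Log2 fold of PM minus PBS (horizontal axis) for the 6 tested members and 52 other pathway genes (vertical axis, by list and by fold within a list). Points are edgeR estimates and bars their 95% intervals. Scube2, at -0.92, has an interval of -1.26 to -0.59, and the intervals of the other 5 members include 0.

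Markers of alveolar fibroblasts, the stromal cells of the air sac wall, were set beside Scube2. Of 9 such markers, all tested, 9 had log2 folds below 0, with a median of -0.76, and for 8 the PM libraries all lay below both PBS libraries, as for 16.1% of all tested genes. Called lower were 2, Wnt2 and Limch1, beside 0.0854% of all tested genes, and 7 had an unadjusted p below 0.05 and a negative fold, beside 6.05%. DESeq2 called 6 lower, beside 0.772% of genes with an adjusted p, and limma-voom 0. Their summed level was 5789 and 5568 CPM in PBS and 3932, 3145 and 3636 CPM in PM. Itga8, Col13a1, Pdgfra and Inmt had log2 folds of -0.90, -0.79, -0.78 and -0.76, Tcf21 and Npnt of -0.47 and -0.35, and Ces1d, whose groups overlapped, of -0.28. Wnt2 and Limch1 were known to have been called before the list was written.

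Per 100 CPM of these 9 markers, Scube2 measured 1.82 and 1.84 CPM in PBS, against 1.68, 1.68 and 1.25 CPM in PM. Without Wnt2 and Limch1 the values were 2.51 and 2.55 in PBS and 2.28, 2.31 and 1.7 in PM. In either form the groups did not overlap, but PM replicates 1 and 2 were much closer to PBS than in Scube2 itself. Division by any sum that is itself lower in PM brings the values closer to PBS. Sums of the other cell types were not used in this way, so nothing about fibroblasts is read from the closeness. Both sums rest largely on Inmt, at a mean of 2661 CPM in PBS, where the sums averaged 5678 and 4110 CPM. Log2 folds of single markers ran from -1.06 for Wnt2 to -0.28 for Ces1d, against -0.92 for Scube2. The closeness thus holds for these sums and not for each marker. The part that the number of fibroblasts has in the Scube2 difference was not tested.

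The markers of the other cell types are given as summed levels, which the most abundant genes dominate. Summed levels were lower in every PM library than in both PBS libraries for adventitial fibroblasts (459 to 481 CPM in PBS, 342 to 382 in PM), pericytes (176 to 180 and 112 to 156), endothelium (1678 to 1778 and 1271 to 1456) and alveolar type 1 cells (4137 to 4217 and 3124 to 3382). They were lower too for mesothelium (263 to 298 and 231 to 250) and for the markers of myofibroblasts, which are known to carry Hhip (75.9 to 89.5 and 66.5 to 69.8). Single markers with all PM libraries below both PBS libraries were 2 of 5 for pericytes, 4 of 6 for endothelium and 4 of 5 for alveolar type 1 cells. Such markers were 3 of 5 for mesothelium and 2 of 4 tested for myofibroblasts, beside 16.1% of all tested genes. In edgeR's test an unadjusted p below 0.05 with a negative fold was found for 4 endothelial, 3 alveolar type 1 and 2 pericyte markers. It was found for 1 marker each of mesothelium, myofibroblasts and adventitial fibroblasts, beside 6.05% of all tested genes. DESeq2 called 1 marker lower each for endothelium, alveolar type 1 cells and adventitial fibroblasts, beside 0.772% of genes with an adjusted p. The adventitial sum rested largely on Clec3b, at 118 and 140 CPM in PBS and 50, 77.7 and 42.2 CPM in PM: it was the only 1 of the 7 markers whose groups did not overlap, the list's median log2 fold was -0.14, and Pi16 was at 0.41. Leukocyte markers were higher in sum, at 609 to 662 CPM in PBS and 798 to 1040 CPM in PM. That sum rested largely on Lyz2, at means of 477 CPM in PBS and 699 CPM in PM. For 4 of the 6 leukocyte markers all PM libraries lay above both PBS libraries, beside 15.5% of all tested genes. The groups of Cd3e and Cd79a overlapped. DESeq2 called 3 of the 6 leukocyte markers higher, where it called 257 of the 14057 tested genes higher. Among the erythroid markers, Hbb-b1 and Hbb-bs had nearly equal levels in each library (5529 and 5638 CPM in PBS replicate 1). So did Hbb-b2 and Hbb-bt, and their sum may hold the same reads more than once. Erythroid markers, which follow blood content, summed to 55482 and 15126 CPM in PBS replicates 1 and 3. The PM sums were 18747, 16461 and 5915 CPM, so that PBS replicate 1 stood far above the rest. The log2 fold of Scube2 was -0.90 without that library, where the call was lost in a fit that keeps only 1 PBS library. With the haemoglobin genes and Rn45s, the ribosomal RNA precursor, removed, it was -0.92 and the call was kept (edgeR, Benjamini-Hochberg adjusted p = 0.0354). Sums of alveolar type 2, club, smooth muscle, Schwann cell, neuroendocrine and basal markers overlapped between groups.

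**Figure D4:**
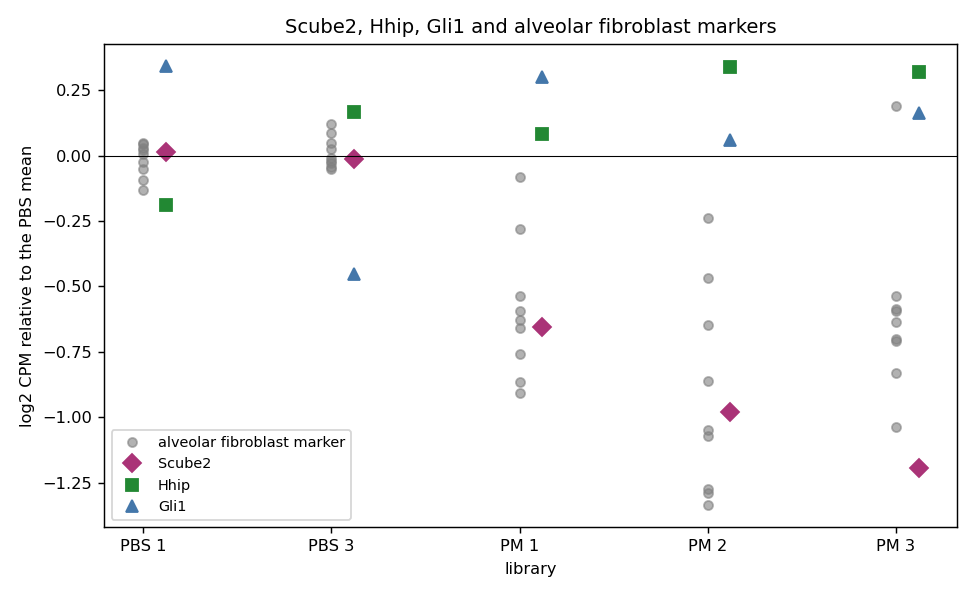
Log2 level relative to the mean of the PBS libraries (vertical axis) in the 5 distinct libraries (horizontal axis) for Scube2, Hhip, Gli1 and 9 alveolar fibroblast markers (grey, 1 point per marker). In the PM libraries Scube2 lies among or below the markers, and Hhip and Gli1 lie above the PBS mean.

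The genes whose pattern over the 5 libraries was most like that of Scube2 were sought among 10867 tested genes with a mean of at least 5 CPM. Likeness was the root mean square difference of log2(CPM + 0.5), each gene centred on its own mean. The nearest were Phyhipl at 0.0970, Tmem119 at 0.111 and Tbc1d22b at 0.118, where Scube2 itself departs from its mean by 0.488. Tmem119 stood at 69.5 and 71.9 CPM in PBS and at 37.6, 35 and 32.3 CPM in PM. For Gli1 the nearest were Dym, Rnf13 and Adam19 at 0.0732 to 0.0798, and for Hhip Fam134c, Kdm2b and Susd6 at 0.0345 to 0.0478. Ptch1 was not compared, since it did not pass the filter. Among the members, the closest pair was Shh and Hhip at 0.242. The pattern of Scube2 was nearest to those of Gli2 at 0.376 and Smo at 0.383, nearly equal, and farthest from that of Shh at 0.773. Gli2 had only 6 to 22 counts per library, so its pattern is uncertain. The 5 libraries fall into only 2 groups, and the values are a description.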

How the data were processed

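The authors deposited whole-number read counts for each gene symbol, without normalization. Per the labels' protocols, RNA was extracted with an easy-BLUE kit and libraries were built with the SENSE mRNA-Seq kit of Lexogen. TopHat, Cufflinks and mm10 are named per the submitters' processing notes, and nothing used here gives their versions, the counter, the annotation or strand use. Of entries sharing a symbol the one with the most counts was kept (44 entries set aside, 0.0251% of counts), and 1 blank entry was left out. In R 4.3.3, edgeR 4.0.16 was used with filterByExpr, TMM scaling and robust quasi-likelihood fits without covariates. The standard error is the log2 fold divided by the square root of F. Positions, exon lengths and overlaps are from GENCODE M21 (GRCm38, the assembly of mm10).

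Members and lists were chosen with earlier results of these data known. Named were all 9 members, called genes of the pathway lists or else the 2 per list with the smallest p, and the 3 genes most like Scube2, Gli1 and Hhip; Boc, Cdon, Gas1, Gli3, Sufu, Scube3, Gpr161, Ccnd1, Igfbp6 and single markers were named after their values were seen. On simulated counts for PM against PBS (13851 genes), the procedure recovered 64% of 100 genes changed 2-fold and 94% of 100 changed 4-fold, with 6 of 164 calls false. The changed genes were drawn only from those with more counts, so recovery for genes such as Gli2 may be lower. The real comparison had 32 calls, and more true changes ease the adjusted threshold. Alternatives used RLE and upper-quartile factors, 2 other filters, DESeq2 1.42.0, limma-voom (limma 3.58.1), non-robust estimation, an adjusted p of 0.10, each library left out, the replicate number as a block, all 6 tables, and, chosen after seeing the data, counts without Rn45s and haemoglobin genes. The planned comparison of member proteins was not made. The result of 1 gene of the pathway lists is not reported here.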

Additional observations from a re-analysis of the deposited data

How the results depend on the processing

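Over 15 alternatives the log2 folds of Hhip (0.08 to 0.44), Shh (0.06 to 0.58), Smo (-0.23 to -0.08) and Gli2 (-1.14 to -0.08) kept their sign, none was called, and members called higher stayed at 0. Gli1 ran from -0.17 to 0.63 and changed sign without PBS replicate 3 (-0.17). That fit keeps only PBS replicate 1, where Gli1, at 16.9 CPM, was higher than in any PM library (13.9 to 16.4 CPM). Members called lower went from 1 to 0 with limma-voom and non-robust estimation and were 0 to 1 over the fits that left out a library. All genes called numbered 32 in the main comparison, 275 with no filter on low counts, 81 with at least 1 CPM in 2 libraries, 369 with DESeq2, 17 with limma-voom, 353 with the replicate block, 635 with all 6 tables as deposited, 206 at an adjusted p below 0.10, and 1 to 427 with 1 library left out. Pathway genes called were 1 with no filter, with DESeq2 and with the replicate block (Lrp2 each time), 2 with all 6 tables (Scube1 and Snai1) and 0 to 3 with 1 library left out. The replicate numbers were not taken to pair the samples, since nothing states that they do. Deviations of same-numbered libraries correlated at -0.027 and 0.045. With only 2 PBS libraries, whose deviations mirror each other, these values cannot decide whether the samples are paired. The block left 1 member called lower. In that fit PM replicate 2, with no PBS library of its number, does not enter the fold. Depth limits Ihh, Dhh, Ptch1 and Gli2, each with at most 23 counts in a library.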
